A study of Caenorhabditis elegans with 4 samples.

Results

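The regions described here are peaks that were called in a single SWD-3 chromatin immunoprecipitation (ChIP-seq) library but overlapped no peak, by even 1 bp, of the list deposited for the whole series. They were chosen by the deposited start and end of each peak, and no score entered the choice. They are called absent peaks below, and the remaining peaks of the same replicate list, which met a series peak, are called listed peaks. There were 939 absent peaks among the 2698 of replicate 1 (34.8%, 95% Wilson interval 33.0 to 36.6) and 779 among the 4580 of replicate 2 (17%, interval 15.9 to 18.1), 1718 of 7278 in all. The material was formaldehyde-fixed wild-type N2 Caenorhabditis elegans embryos of mixed stages, from cultures of males and hermaphrodites together. The antibody was an affinity-purified rabbit polyclonal against SWD-3. The labels name 2 ChIP libraries and 2 input DNA libraries, all of this strain, genotype and stage, without stating that each replicate had its own embryo preparation. The inputs enter no value here, so SWD-3 binding cannot be told apart from places that give peaks whatever the antibody. Read depth is unknown, so where a list lacks a peak, the sequence there may still carry signal below the caller's threshold.

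As background, SWD-3 is the worm counterpart of WDR5, a propeller-shaped protein that holds together the COMPASS family of complexes. These complexes methylate histone H3 at lysine 4, a mark found at the promoters of active genes. Worm chromosomes have gene-dense centres and arms richer in repeats, end in telomeric repeats, and use no single point centromere. A peak caller marks stretches with more reads than its model of the background allows and gives each a score. The deposited score is the authors' own value per peak, on a scale the files do not name, and is used here only to rank peaks within 1 list. Peaks of 1 list are not replicates of each other, and membership was decided by the series list itself. Differences between absent and listed peaks are therefore described without a test. Intervals cover counting error only and take each peak as independent, although absent peaks clustered. Whether intervals overlap or lie apart is thus a description and not a test.

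Absent peaks were mainly low-scoring, far more so in replicate 2. In replicate 1 the median deposited score was 78.8 for absent peaks against 132.8 for listed ones, which placed the median absent peak at percentile 35.7 of its list and the median listed peak at percentile 59.4. Replicate 2 had a median of 77.2 for absent peaks (percentile 13.2) against 285.5 for listed peaks (percentile 58.3). Of the absent peaks, 300 in replicate 1 (31.9%) but only 26 in replicate 2 (3.34%) scored above the median of their list, against 59.6% of the listed peaks in each replicate. In the lowest score decile, 52.2% of replicate 1 peaks (interval 46.3 to 58.1) and 67.9% of replicate 2 peaks (63.5 to 72.0) were absent from the series list. The share then fell steeply in replicate 2, to 15.7% in decile 4 and 3.28% in decile 6, and the highest decile held 0 of 458. In replicate 1 it levelled off instead, at 16.3%, 19.6% and 15.9% in the 3 highest deciles.

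**Figure D1:**
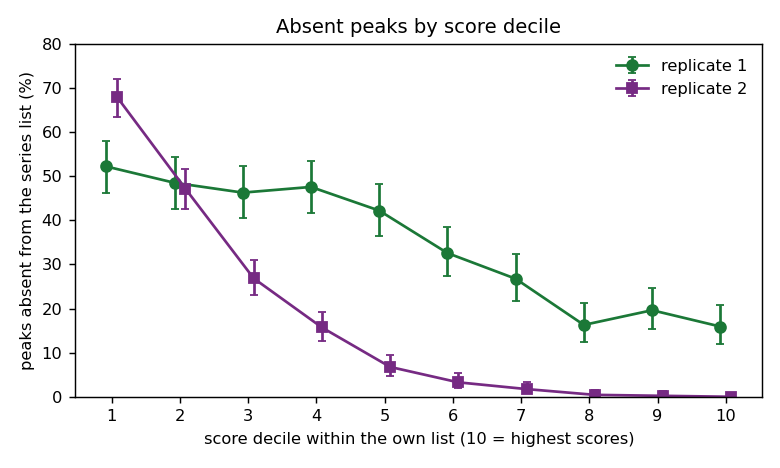
Percent of peaks that overlap no series peak (vertical axis) in each score decile of the own list (horizontal axis, 10 the highest scores), for replicate 1 (circles) and replicate 2 (squares), with 95% Wilson intervals. Replicate 2 drops to 0 in the highest decile, while replicate 1 stays near 16% there.

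Small overlaps with the series list were rare in replicate 2 and less so in replicate 1. Just inside the boundary of the group, 3 replicate 1 peaks lay 0 or 1 bp from a series peak, on chromosome I at 4960282 to 4960900 and on chromosome II at 3054956 to 3055107 and 11527751 to 11528552. Just outside it, the least overlapping listed peaks of replicate 1 shared 2 bp with the series list on chromosome IV (1715129 to 1715311) and on chromosome V (14028642 to 14028773), and 5 bp on chromosome I (4958942 to 4959234). Replicate 1 had 67 listed peaks with under 100 bp of overlap (3.81%). In replicate 2 there were 5 such peaks among 3801 (0.132%), and the smallest overlap was 90 bp (chromosome III, 13032067 to 13032326), followed by 97 bp in 2 peaks of X at 10749842 to 10750141 and 11222980 to 11223233. The nearest absent peaks of replicate 2 lay 0, 9 and 49 bp from a series peak, on chromosome I at 7676202 to 7676412, on V at 17390610 to 17390849 and on I at 13498883 to 13499129. Series peaks covered less of a listed peak in replicate 2, a median of 56.6% of its width against 84.4% in replicate 1. With at least 50% of the width to be covered, the share called absent was 41.1% in replicate 2 and 44.5% in replicate 1, against 17.0% and 34.8% at 1 bp.

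Most absent peaks were not near misses. The median distance to the nearest series peak was 4688 bp in replicate 1 and 4557 bp in replicate 2. Only 48 absent peaks of replicate 1 (5.11%) and 17 of replicate 2 (2.18%) lay less than 200 bp from a series peak, whereas 293 (31.2%) and 244 (31.3%) had none within 10 kb. The farthest were 66067 and 66057 bp away. Distances were longer in chromosome centres, the middle 50% of each chromosome, with medians of 5188 and 5138 bp, than in the arms, with 4129 and 3694 bp. The series list, of 9630 peaks, held 58.1 per Mb in centres and 134.0 per Mb in arms, and the part of this density in the distances was not tested.

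**Figure D2:**
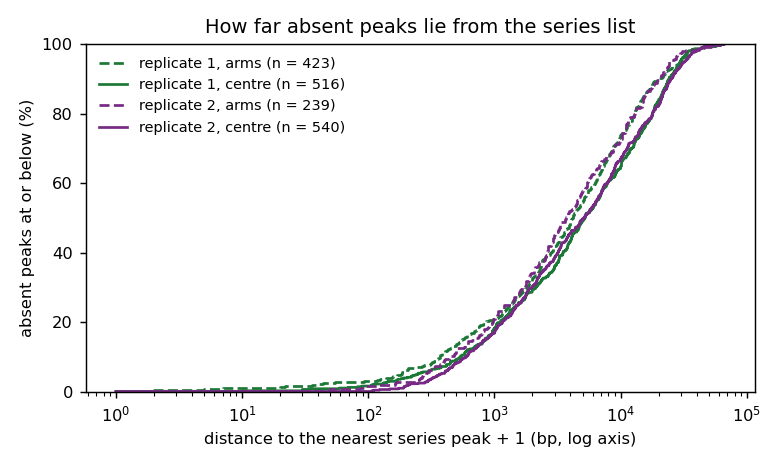
Cumulative percent of absent peaks (vertical axis) whose nearest series peak lies at or below a distance in bp (horizontal axis, log scale, 1 added to each distance), by replicate (colour) and by arms (dashed) or centres (solid). All 4 curves pass 50% between 3694 and 5188 bp, the arms at shorter distances than the centres in each replicate.

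Recurrence in the other replicate is a measure that the rule did not use, although the reads behind the series list are not stated. Of the 939 absent peaks of replicate 1, 269 overlapped a replicate 2 peak (28.6%, interval 25.8 to 31.6), against 1416 of 1759 listed peaks (80.5%, 78.6 to 82.3); over the whole replicate 1 list the share was 62.5%. Of the 779 absent peaks of replicate 2, 231 overlapped a replicate 1 peak (29.7%, 26.6 to 33.0), against 1369 of 3801 listed peaks (36.0%, 34.5 to 37.6) and 34.9% of the list as a whole. Among replicate 2 peaks of like score the order was the opposite of that over the whole list. In decile 3 of its scores 40.7% of absent peaks recurred (50 of 123) against 14.6% of listed ones, in decile 4 54.2% (39 of 72) against 15.5%, and in decile 5 58.1% (18 of 31) against 20.4%. In the lowest decile 16.4% of absent peaks (51 of 311) and 12.2% of listed peaks recurred, with overlapping intervals. Together, the lowest 2 deciles held 527 of the 779 absent peaks.

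In replicate 1 the share that recurred was lower for absent than for listed peaks in each of the 10 deciles, from 19.9% (28 of 141) against 69.0% in the lowest to 46.5% (20 of 43) against 94.7% in the highest. Width classes gave the same ordering in replicate 1. Among its peaks of up to 200 bp, 21.9% of absent and 92.3% of listed peaks recurred. In replicate 2, the share of absent peaks that recurred was slightly above that of listed peaks in every class from 200 bp upwards, with 9.51% against 6.47% for widths above 200 and up to 400 bp, 40.8% against 36.7% up to 800 bp, 78.7% against 75.7% up to 1500 bp and 70.6% against 59.5% beyond. These width differences lay within overlapping intervals.

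**Figure D3:**
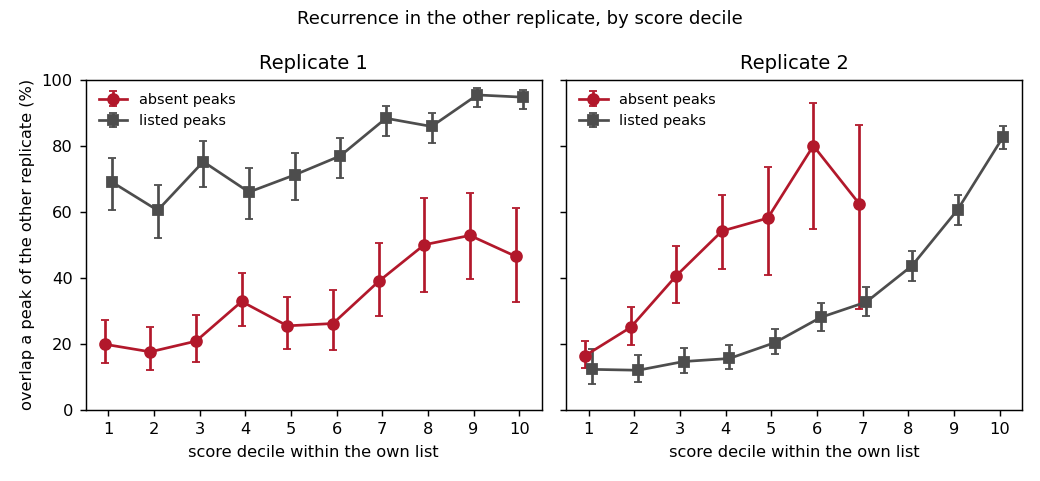
Percent of absent peaks (circles) and listed peaks (squares) that overlap a peak of the other replicate, by score decile of the own list, with 95% Wilson intervals, for replicate 1 (left) and replicate 2 (right); points with under 8 peaks are not drawn. Absent peaks lie below listed peaks throughout replicate 1 and above them in the drawn deciles of replicate 2.

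Where absent peaks recurred, they met mostly one another. All 231 recurring absent peaks of replicate 2 overlapped only absent peaks of replicate 1. In replicate 1, 242 of the 269 recurring peaks (90.0%) met only absent peaks of replicate 2, and the other 27 met a replicate 2 peak that touched a series peak elsewhere along its length. Membership in both lists was decided by the same series list. The recurring absent peaks of replicate 2 lay a median of 4537 bp from it, and listed peaks of replicate 1 had a median width of 431 bp. A peak that met an absent peak could thus seldom be listed, and these counts are largely set by the rule. Merging the absent peaks of both lists gave 1475 separate places, of which 230 (15.6%) had absent peaks from the 2 lists together, 697 came from replicate 1 only and 548 from replicate 2 only. No like count is given for listed peaks, so the 15.6% has no comparison. Chromosome X had the highest share of places found in both (18.9%, 50 of 264) and V the lowest (11.8%, 30 of 254). A high share on X was not particular to absent peaks. Listed peaks of replicate 2 recurred at 49.5% on X and 33.5% on the autosomes, and its absent peaks at 34.2% and 28.6%. Listed peaks of replicate 1 recurred at 84.7% on X and 79.4% on the autosomes, though at 90.2% on III. Absent peaks of replicate 1 recurred at 35.1% on X and 27.2% on the autosomes.

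The edges of these recurring peaks were close. Across 243 overlapping pairs of absent peaks, the starts differed by a median of 78 bp and the ends by 73 bp, against 121 and 125 bp across 1420 pairs of listed peaks. Both edges lay within 100 bp of each other in 37.9% of the absent pairs and 19.9% of the listed pairs. The replicate 2 peak was wider than its partner by a median of 146 bp in absent pairs and 268 bp in listed pairs. The part of these width differences in the edge distances was not tested. Ranks were less alike. The score percentile was higher in replicate 1 in 197 of the 243 absent pairs (81.1%), with medians of 49.6 in replicate 1 and 21.8 in replicate 2. Listed pairs leaned the other way, with replicate 1 higher in 417 of 1420 (29.4%). Over all absent peaks the median percentile was already higher in replicate 1 (35.7) than in replicate 2 (13.2), while listed peaks had 59.4 and 58.3. Listed pairs had medians of 65.0 in replicate 1 and 79.8 in replicate 2. Whether either lean goes back to where the peaks sat in each list was not tested, and both are descriptions only. The rank correlation between the replicates, given as a description across peaks, was 0.30 for the absent pairs and 0.49 for the listed pairs.

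**Figure D4:**
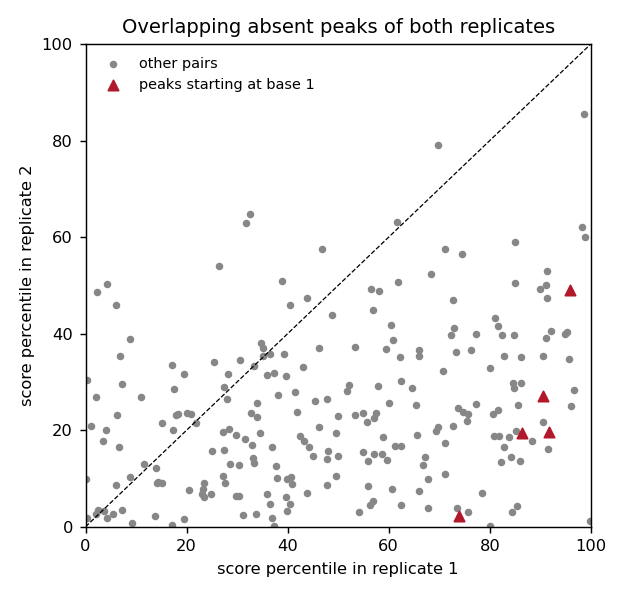
Score percentile in replicate 1 (horizontal axis) and replicate 2 (vertical axis) of each of the 243 pairs of overlapping absent peaks; the dashed line marks equal percentiles and triangles mark peaks that start at base 1 of a chromosome. Of the pairs, 197 lie below the line.

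The strongest absent site of replicate 1 was on the left arm of chromosome V, from 3434572 to 3441153, with a score of 2914.98 and rank 6 of 2698. Its counterpart in replicate 2, from 3434535 to 3441178, had nearly the same edges but a score of 52.37 and rank 4524 of 4580. It was 22466 bp from the nearest series peak, and at 6582 and 6644 bp it was the widest absent peak of replicate 2 and the next to widest of replicate 1. This site thus stood near the top of 1 list and near the bottom of the other. Further strong sites were found in both replicates. On chromosome III, a peak from 5353042 to 5358515 ranked 32 in replicate 1 (score 1607.53), and its counterpart from 5353010 to 5358582 ranked 1832 in replicate 2 (score 301.97), 21473 bp from the series list. On chromosome IV, a peak from 12316269 to 12319438 ranked 38 in replicate 1 (score 1400.84), and the matching peak from 12316240 to 12319444 ranked 667 in replicate 2 (score 707.11). That was the highest-scoring absent peak of replicate 2 and the best pair over both lists, with starts 29 bp and ends 6 bp apart. On X, 11785646 to 11787936 ranked 49 in replicate 1 (score 1200.59) and 11785576 to 11787950 ranked 1739 in replicate 2 (score 322.68). Next to it, 99 bp beyond the replicate 1 peak, replicate 2 alone had a further absent peak from 11788036 to 11789558 (score 375.07, rank 1495). The 5 best pairs by summed percentile were completed by chromosome III 7594631 to 7595965 (rank 818 in replicate 1; in replicate 2 the peak ran from 7594588 to 7597297 and ranked 956, score 545.17) and by the left end of chromosome I, described below.

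Of the 10 highest-scoring absent peaks, 5 in replicate 1 and 4 in replicate 2 had no counterpart in the other list. Those 10 of replicate 1 lay in its highest score decile, where 94.7% of listed peaks had a counterpart. Those of replicate 2 lay in deciles 7 to 9, where 32.7%, 43.6% and 60.6% of listed peaks had one, against 34.9% of its whole list. In replicate 1 the peaks without a counterpart lay on chromosome IV at 14210727 to 14215489 (rank 63) and 688698 to 693429 (rank 96), on I at 4340756 to 4345298 (rank 74) and 3389940 to 3393368 (rank 103), and on II at 694327 to 696088 (rank 89). Their nearest replicate 2 peaks were 5311 to 43548 bp away. The remaining peak of that group, on chromosome IV from 8335385 to 8336459, ranked 90 in replicate 1 and overlapped a replicate 2 peak of rank 3282. In replicate 2 the peaks without a counterpart were the X peak above, chromosome IV 4416382 to 4422117 (score 408.76, rank 1366) and chromosome I 10207558 to 10211295 (score 397.85, rank 1406) and 10216571 to 10219294 (score 323.36, rank 1731). The last 2 flanked a pair of listed replicate 2 peaks, at 10211319 to 10214088 and 10214121 to 10216246, which met the series list over 201 and 152 bp only. The others of the group were shared with replicate 1 and lay on III at 10819128 to 10820090 (rank 1610), on X at 13969032 to 13969941 (rank 1693) and on I at 7082634 to 7083453 (rank 1698). Their replicate 1 counterparts ranked 1820, 1038 and 1842 of 2698.

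At the left end of each chromosome, all the peaks that start at base 1 were absent from the series list. These were 6 of 6 in replicate 1 and 5 of 5 in replicate 2, chromosome III having none in replicate 2. Whether these peaks lie in telomeric repeats was not examined, as no sequence was used. They were 215 to 535 bp wide in replicate 1 and 252 to 534 bp in replicate 2. The peak of chromosome I ended at base 535 in replicate 1 and 534 in replicate 2, that of V at 400 and 407, that of IV at 233 and 252, that of X at 351 and 382, and that of II at 441 and 474. The nearest series peak was 3266 bp away on I and 25349 bp away on III, with the others between these. Ranks differed between the replicates. In replicate 1 they stood at percentile 95.8 on I, 91.6 on V, 90.5 on X, 86.5 on II, 74.4 on III and 73.9 on IV. The replicate 2 percentiles were 49.0 on I, 27.0 on X, 19.7 on V, 19.5 on II and 2.19 on IV. All 5 pairs had the higher percentile in replicate 1, as did 197 of the 243 absent pairs. The lists differ in length and absent peaks sat lower in the replicate 2 list as a group, so this is a description of the ranks only.

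The tips as a whole, taken as the outermost 100 kb of each end, were otherwise not rich in absent peaks. They held 13 absent peaks among 49 in replicate 1 (26.5%, interval 16.2 to 40.3) and 12 among 68 in replicate 2 (17.6%, 10.4 to 28.4). Right tips had no common pattern. On chromosome IV the last peak of any list was an absent peak of replicate 2, from 17492617 to 17493019 (score 209.36, rank 2381), with another absent peak beside it at 17492296 to 17492570. The closest replicate 1 peak was 30885 bp away. No chromosome length was used other than the last base of the outermost peak, so the distance of this peak from the true end is not known. On the right tip of I, an absent peak was found in both replicates at 15041384 to 15041999 (rank 689 of 2698) and 15041337 to 15042372 (rank 1993 of 4580). On the right tip of III, replicate 1 alone had an absent peak from 13753606 to 13754605 (score 395.35, rank 283).

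Between arms and centres, absent peaks leaned to the centres, and the intervals were apart in replicate 2 only. In replicate 2, 30.7% of absent peaks lay in arms (interval 27.5 to 34.0) against 45.1% of listed peaks (43.5 to 46.7). In replicate 1 the arms held 45.0% of absent peaks (41.9 to 48.2) and 48.4% of listed peaks (46.1 to 50.8), whose intervals overlap. Put as density, absent peaks of replicate 2 numbered 4.77 per Mb in arms and 10.8 per Mb in centres. Those of replicate 1 numbered 8.44 and 10.3 per Mb. By chromosome, the share absent in replicate 2 was higher in the centre than in either arm on all 6 chromosomes, by little on IV, where the right arm had 19.9% and the centre 20.0%. It ranged from 5.13% on the right arm of V (6 of 117) and 6.71% on the left arm of III to 24.4% in the centre of V (104 of 427). In replicate 1 the lowest shares were on the left arm of III (17.6%, 13 of 74) and the right arm of V (22.4%), but the highest was also in an arm, the left arm of V (46.1%, 41 of 89). In replicate 2 the share absent was higher in centres on both sides of the list median, but above it the intervals overlapped. Below the median, 24.5% of replicate 2 peaks in arms and 38.8% in centres were absent, and in replicate 1 42.2% in arms and 52.2% in centres. Above it, 0.793% in arms (8 of 1009, interval 0.402 to 1.56) and 1.41% in centres (18 of 1281, 0.891 to 2.21) were absent in replicate 2. In replicate 1 these shares were 23.5% in arms and 21.2% in centres. Among replicate 2 peaks above the median, the arm share of absent minus listed peaks was -13.4 percentage points, close to the -14.4 of the whole list, though with 26 absent peaks. In replicate 1 it was 3.34 above the median, against -3.39 in the whole list. The denser series list in arms moves with this pattern, and its part in it was not tested.

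**Figure D5:**
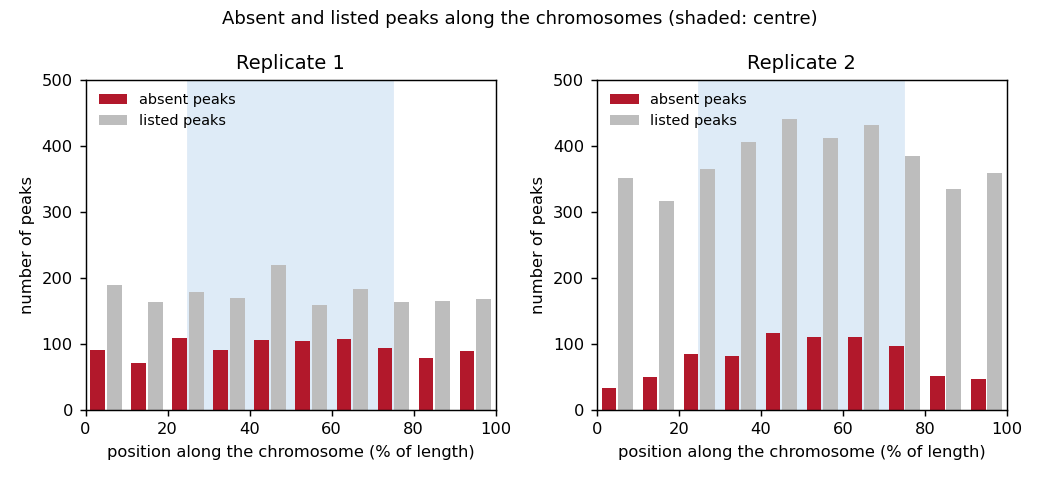
Number of absent peaks (dark bars) and listed peaks (light bars) in each 10% of chromosome length, summed over the 6 nuclear chromosomes, for replicate 1 (left) and replicate 2 (right); the shaded zone is the centre. In replicate 2 the outermost bins hold 33 and 46 absent peaks and the middle ones 117 and 111, while in replicate 1 all bins hold between 71 and 109.

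Recurring absent peaks were more central than the others in replicate 1. There 34.2% of recurring absent peaks (interval 28.8 to 40.1) and 49.4% of the others (45.6 to 53.2) lay in arms. Replicate 2 had 35.1% of recurring absent peaks (29.2 to 41.4) and 28.8% of the others (25.2 to 32.8) in arms, the opposite order with overlapping intervals. The lean in replicate 1 was not particular to absent peaks. Its listed peaks recurred at 88.8% in centres and 71.7% in arms, and its absent peaks at 34.3% and 21.7%. Listed peaks of replicate 2 recurred at 37.1% in centres and 34.7% in arms. By chromosome, the share of replicate 1 peaks absent from the series list was lowest on III (31.7%) and highest on IV (39.3%), and that of replicate 2 peaks lowest on I (13.9%) and highest on X (19.5%). X was thus highest in replicate 2 but near the low end in replicate 1, at 32.6%. The mitochondrial genome had 0 peaks in either replicate.

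Absent peaks were narrower than listed ones at the median, yet included some of the widest calls of replicate 1. The median width was 392 bp for absent and 431 bp for listed peaks in replicate 1. It was 428 bp for absent and 557 bp for listed peaks in replicate 2. Above 1500 bp, where an overlap of 1 bp is easiest to meet, 35 of the 69 peaks of replicate 1 were absent (50.7%, interval 39.2 to 62.2), the highest share of any width class in that list. In replicate 2, 17 of 101 were absent (16.8%, 10.8 to 25.3), against 33.8% of those above 200 and up to 400 bp. Among the 43 absent peaks in the highest score decile of replicate 1, 21 were wider than 1500 bp, and the median width was 1464 bp against 776 bp for the 227 listed peaks of that decile. Of the wide absent peaks of replicate 1, 9 of 35 (25.7%) recurred in replicate 2, against 16 of 34 wide listed peaks (47.1%). In the other direction 12 of 17 wide absent peaks (70.6%) recurred, against 50 of 84 wide listed peaks (59.5%). The share that recurred was thus higher in replicate 2 for wide absent and wide listed peaks alike. The widest of all ran from 4345313 to 4357662 on chromosome I in replicate 1 (12350 bp, score 669.32, rank 140). Together with its neighbour at 4340756 it formed a nearly unbroken stretch, and no replicate 2 peak lay within 10 kb of it. The other widest absent peaks of each list were the V and III sites above and the replicate 2 peak of chromosome IV from 4416382.

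Absent peaks also tended to sit next to each other. The nearest peak of the own list was itself absent for 48.1% of absent peaks in replicate 1 (452 of 939) but for 28.8% of listed peaks, and in replicate 2 for 26.8% of absent (209 of 779) and 15.7% of listed peaks. With the nearest peak at least 1 kb away, the difference between absent and listed peaks was 12.3 percentage points in replicate 1 and 10.3 in replicate 2. At any distance it was 19.4 and 11.1. Linked at distances of up to 10 kb, 404 absent peaks of replicate 1 (43.0%) fell into 166 clusters and 246 of replicate 2 (31.6%) into 103. Listed peaks were not linked in this way, so these cluster counts have no comparison. Most clusters were pairs, 116 and 78 of them. In 97 full 1 Mb bins the median was 9 absent peaks in replicate 1 and 8 in replicate 2, and the maximum 22 in each. Chromosome V 14000001 to 15000000 was at or near the top of both lists, with 22 absent of 31 peaks in replicate 1 and 21 of 55 in replicate 2.

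The biggest cluster of all lay on chromosome III from 7408239 to 7433548, where replicate 2 called 9 absent peaks in 25310 bp. Their scores ran from 72.94 to 206.28, all below the list's median rank, and neither the series list nor replicate 1 had a peak in the stretch. In contrast, 6 absent peaks of replicate 1 on III from 6566898 to 6574452 (ranks 524 to 2206) were partly joined in replicate 2, which had a single absent peak there from 6566880 to 6570448 that met 4 of them. Clusters of the 2 lists also lay over each other with only part of their peaks overlapping. On II there were 6 absent peaks of replicate 1 between 6822412 and 6834239 and 5 of replicate 2 between 6822249 and 6845074, and 2 of the 6 overlapped a replicate 2 peak. On I there were 5 absent peaks of replicate 1 between 6151388 and 6164692 and 4 of replicate 2 between 6153443 and 6167017, and 3 of the 5 overlapped a replicate 2 peak. The narrowest replicate 2 cluster of 4 absent peaks spanned 3202 bp on V, from 14830595 to 14833796, and 3 of its peaks recurred in replicate 1.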

How the data were processed

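The data were 3 peak lists, 1 for each of the 2 SWD-3 ChIP libraries and 1 for the whole series. The libraries behind the series list are not named. Per the file headers, coordinates are of WormBase WS220, and the source column names MACS for the replicate lists and MACS v2 for the series list; the submitters' processing notes name BWA and ce10. How peaks were thresholded, controlled or pooled is not given in the sources used here. The authors deposited 1 score per peak, of unnamed scale, and starts and ends are other deposited values, 1-based. Everything else was computed with pandas 2.3.3, numpy 2.4.6 and scipy 1.17.1 under Python 3.11.15, and figures with matplotlib 3.10.9. A peak was absent when it shared no base with any series peak; distances are bases between edges, percentiles rank scores within a list with ties averaged, and arms are the outer 25% on either side. The last base of the outermost peak stood for the chromosome length. Overlap code was tested on simulated data. Intervals are 95% Wilson intervals; depth is unknown. No test over peaks was made.

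The members and lists were chosen with earlier results of these data known. Regions named in each list were the 10 highest-scoring and 3 widest absent peaks, those starting at base 1, the 3 biggest clusters, the 5 best overlapping pairs and the 3 peaks on either side of the boundary; others, including further tip peaks, listed neighbours and overlapping clusters, were chosen after their values were seen. No genome sequence or annotation of WS220 was used here, so no sequence or gene is given.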

Additional observations from a re-analysis of the deposited data

How the results depend on the processing

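Values here are means of the 2 lists, whose spread (SD, n = 2) was the yardstick; leaving out either replicate gives the other list's value. The percent of peaks absent from the series list was 25.9 ± 12.6 (17.0 to 34.8 in single lists). It was 42.8 when series peaks had to cover 50% of the peak, 45.3 against only those series peaks above the median series score and 11.7 for peaks scoring above their own list's median. The median width of absent minus listed peaks, -84 bp (-129 to -39), was -9.75 bp under the 50% cover rule and reversed to 210.75 bp for peaks above the score median. The score percentile difference, -34.4 (-45.0 to -23.7), was -13.2 there. These follow from the construction of the subsets or rules in part; the cause was not tested otherwise. Recurrence (absent minus listed) was -29.1 percentage points (-51.9 to -6.36), the arm share -8.90 (-14.4 to -3.39) and the absent nearest neighbour 15.3 (11.1 to 19.4). These 3 kept their direction in the mean under every alternative run: the 50% cover rule, series peaks within 200 bp counted, the upper part of either kind of list, peaks of up to 1000 bp, centres of 40% (arm share) and neighbours at least 1 kb away (nearest neighbour). Within single lists, recurrence in replicate 2 reversed to 23.3 and the arm share in replicate 1 to 3.34 for peaks above the score median. No paired analysis was possible because no result came from a test and the input libraries have no values here. Unknown depth limits every statement about a missing peak.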

Other observations

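Some absent peaks came in runs with almost no gap, mostly in replicate 1. Neighbouring absent peaks were under 200 bp apart in 42 cases in replicate 1 and 17 in replicate 2. No such count was made for listed peaks, so close neighbours cannot be called particular to absent peaks. On the left arm of chromosome II, replicate 1 had 3 absent peaks in a row at 694327 to 696088, 696149 to 697612 and 697632 to 699162 (ranks 89, 184 and 303 of 2698), and replicate 2 had no peak overlapping them. On the left arm of IV, a looser run of replicate 1, whose first gap was wider than 200 bp, had peaks at 688698 to 693429, 693704 to 695702 and 695841 to 698277 (ranks 96, 468 and 194), again without a replicate 2 peak.

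On chromosome IV, 2 absent peaks of replicate 1 were both exactly 1075 bp wide, at 8330890 to 8331964 and 8335385 to 8336459, with scores of 823.29 and 875.12. A peak between them, at 8333557 to 8334908, scored 842.63 and overlapped the series list by 544 bp, so 3 neighbours of nearly equal score fell on different sides of the boundary. In replicate 2 the outer peaks scored 109.14 and 120.81 and the middle one 451.19. A second pair on IV, at 10943387 to 10944227 and 10945581 to 10946298, ranked 120 and 128 in replicate 1, and its counterparts ranked 2991 and 2735 of 4580 in replicate 2. These regions were chosen after their values were seen, and no sequence of the build was used here to compare them.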
